A study of Mus musculus with 3 samples.

Results

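The genes described here are 32 nuclear hormone receptor and coregulator genes, 24 receptors and 8 coregulators, taken as a named list and matched by symbol through the GENCODE M21 annotation. All 32 were present in the gene tables, which hold 55536 annotated genes. The levels come from sequencing of polyadenylated RNA from regulatory T cells in an activated state (Treg cells for short, Foxp3-dependent CD4 cells that limit immune responses). The cells were primary cells of a male mouse aged 9 weeks, with the whole organism given as their origin. No genotype, strain, agent, sort or mode of activation is named in the labels. The series held 3 libraries, sheared and sequenced as technical replicates 1, 2 and 3 of 1 biosample from 1 donor, and no other group. Every SD below is therefore over 3 libraries of the same material, and an exact sign-flip test over 3 libraries cannot give a p below 0.25. Levels are in TPM, transcript abundance corrected for length and library depth, as mean ± SD with n = 3 unless stated.

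The libraries held 31445344, 32612609 and 37259281 expected counts. The 4 Treg markers Foxp3, Il2ra, Ctla4 and Ikzf2 were detected in every library, with a summed level of 1209 to 1267 TPM, and the 4 T cell markers Cd3e, Cd3d, Cd3g and Cd4 summed to 3654 to 3715 TPM. Of 5 B cell markers 4 were detected, summing to 36.7 to 50.9 TPM. Of 5 macrophage and monocyte markers 3 were detected, summing to 38.9 to 44.2 TPM, and of 4 dendritic cell markers 2 were, summing to 23.9 to 41.6 TPM. None of 4 granulocyte markers was detected in all libraries, and their sum was 19.4 TPM in library 1 against 0.66 and 2.08 TPM in libraries 2 and 3. Of 4 markers of CD8 and natural killer (NK) cells 3 were detected, summing to 23.2 to 25.6 TPM. The 3 erythroid markers summed to 368 to 519 TPM, and none of the 4 stroma and endothelium markers or the 3 hepatocyte markers was detected. How far those other cells contributed to the low members was not tested. In bulk RNA, fewer cells of a type and less RNA per cell cannot be told apart.

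Nuclear receptors are transcription factors that bind DNA at short hormone response elements, and many change activity when a small lipophilic ligand such as a steroid, a retinoid, an oxysterol or a fatty acid fills their ligand pocket. Many of the non-steroid receptors act as heterodimers with a retinoid X receptor, and without ligand several of them hold a corepressor complex built on Ncor1. Ligand binding exchanges that complex for coactivators of the p160 family (Ncoa1, Ncoa2 and Ncoa3) and for Mediator, which Med1 links to the receptors. In T cells, retinoic acid, glucocorticoids, vitamin D and oxysterols are known to shape differentiation, gut homing and proliferation through these receptors.

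Of the 32 genes, 21 were detected, defined as a TPM of at least 1 in each of the 3 libraries. Over all 22028 protein-coding genes the same rule called 10429, or 47.3%. Coregulators were detected more completely, 7 of 8 with a median of 37.8 TPM, than receptors, 14 of 24 with a median of 2.36 TPM. The median over all 32 genes was 5.43 TPM, beside 0.808 TPM over all protein-coding genes. By class, 7 of 11 ligand-bound receptors of the first subfamily were detected, 2 of 3 retinoid X receptors, 1 of 4 steroid receptors, 4 of 6 orphan receptors, 5 of 6 coactivators and both corepressors. Just inside the detection threshold stood Ppard with 1.36, 1.12 and 3.14 TPM. Just outside it stood Nr6a1 with 1.12, 1.51 and 0.70 TPM and Esr1 with 0.73, 1.28 and 1.23 TPM, each under the threshold in 1 library only. Ordered by mean TPM, 9 of the 31 pairs of neighbours lay farther apart than their spread, meaning that all 3 log2 differences pointed one way and averaged more than 2 SD. All 9 lay at or above the step from Thra to Nr2c1, so the order of the 15 genes from Nr2c1 downward was not resolved from neighbour to neighbour.

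**Figure D1:**
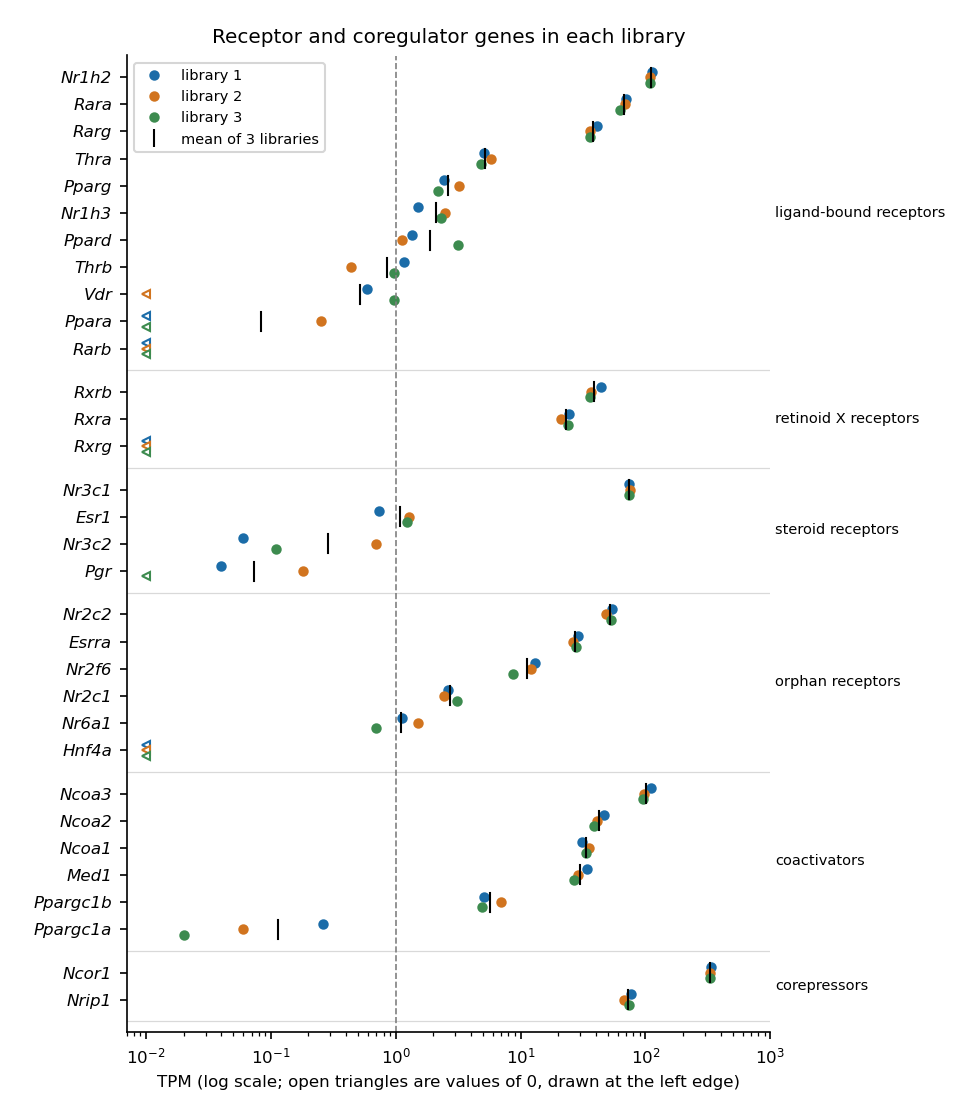
Each row is a receptor or coregulator gene, grouped by role, and each dot is its TPM in 1 of the 3 libraries on a log axis, with a black line at the mean, open triangles for values of 0 and a dashed line at 1 TPM. Ncor1 sits highest at 331 TPM, while Rarb, Rxrg and Hnf4a are at 0 in all 3 libraries.

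The retinoic acid receptors, which bind all-trans retinoic acid, were represented by 2 of their 3 genes. Rara was at 69.3, 68.5 and 62.7 TPM, or 66.8 ± 3.60, and Rarg at 41.0, 36.3 and 35.9 TPM, or 37.7 ± 2.83. The libraries of Rara and Rarg did not overlap in TPM, and within a library the log2 ratio of Rara to Rarg was 0.83 ± 0.08, larger than the spread. Rarb had 0 expected counts in every library, where 3 counts would give a mean of 0.0978 TPM, so Rara was at least 683-fold and Rarg at least 385-fold higher than Rarb in TPM. The smaller gene tables, which come from a separate alignment, list Rarb at 4, 0 and 6 counts, and 2020 of its 5265 exon bases overlap antisense exons of Top2b and Gm48162. On CPM of those tables, counts scaled to depth but not to length, the log2 ratio of Rara to Rarb was 8.95.

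By the estimated transcript shares, with no map of 5' ends among the data, Rarg and Rara each drew on more than 1 annotated start. For Rarg, the transcript Rarg-202 from the downstream start held 61.3% ± 2.83 of the gene's TPM (58.2%, 63.8% and 61.8% in libraries 1, 2 and 3), and the upstream start of Rarg-201 held 32.8% ± 1.69. Rarg-202 was the larger in all 3 libraries, and it has 441 exon bases that no other Rarg transcript holds. The windows around both RefSeq starts are shown because the estimates divide the gene's RNA between them. Each runs from 250 bases before to 50 bases after the start on the minus strand of GRCm38.p6 (mm10). CpG dinucleotides are in capitals. The upstream window, chr15:102257473-102257772, holds 12 CpGs at 70% GC, and the downstream window, chr15:102246451-102246750, holds 10 at 51.7% GC.
Rarg upstream start: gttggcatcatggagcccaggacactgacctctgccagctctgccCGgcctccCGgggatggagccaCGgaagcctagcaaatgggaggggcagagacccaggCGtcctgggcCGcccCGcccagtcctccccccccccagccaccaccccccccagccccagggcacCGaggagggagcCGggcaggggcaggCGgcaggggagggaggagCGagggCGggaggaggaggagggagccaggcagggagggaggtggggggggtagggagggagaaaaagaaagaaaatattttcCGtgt
Rarg downstream start: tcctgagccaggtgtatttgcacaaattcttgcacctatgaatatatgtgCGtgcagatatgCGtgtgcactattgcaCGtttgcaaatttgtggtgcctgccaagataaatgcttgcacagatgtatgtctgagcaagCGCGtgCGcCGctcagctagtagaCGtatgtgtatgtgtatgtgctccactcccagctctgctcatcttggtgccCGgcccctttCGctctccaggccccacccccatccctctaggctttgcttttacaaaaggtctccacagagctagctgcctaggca
The Rarb window is shown because it carries the only match among the 43 windows of these genes to a direct repeat spaced by 5 bases, the arrangement that retinoic acid receptor heterodimers are known to bind. It lies at chr14:16575427-16575726 on the minus strand, and the capitals mark both repeats, the first of which begins 53 bases before the start.
Rarb: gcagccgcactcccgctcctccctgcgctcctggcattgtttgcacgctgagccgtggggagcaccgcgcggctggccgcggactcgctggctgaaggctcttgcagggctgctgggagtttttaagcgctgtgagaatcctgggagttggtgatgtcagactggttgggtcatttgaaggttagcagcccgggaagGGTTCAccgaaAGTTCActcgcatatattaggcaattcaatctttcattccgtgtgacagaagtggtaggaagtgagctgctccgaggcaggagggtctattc
For Rara, Rara-204 held 53.8% ± 2.69 of the TPM, Rara-202 21.7% ± 0.62 and Rara-207 17.9% ± 3.55, and all 3 carry a complete coding sequence. Rara-204 has 20 exon bases that no other Rara transcript holds.

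The retinoid X receptors are the shared heterodimer partners of many of the non-steroid receptors, the retinoic acid receptors included. Rxrb was at 44.2, 36.5 and 36.3 TPM, or 39.0 ± 4.52, and Rxra at 24.3, 21.1 and 24.0 TPM, or 23.1 ± 1.78. Per length, Rxrb was above Rxra in all 3 libraries, with a log2 ratio of Rxra to Rxrb of -0.75 ± 0.14. The sign of that ratio turned to 0.49 on CPM, which has no length correction, and it fell within the spread at -0.36 on the TPM of transcripts with a complete coding sequence, since 27.5% ± 5.22 of the Rxrb TPM lay on retained-intron transcripts. The order of the 2 genes therefore depended on the scale. Rxrg had 0 counts in every library, and in TPM Rxrb was at least 494-fold and Rxra at least 293-fold above the level that 3 counts would give. Rxra came almost wholly from a single transcript, Rxra-201, with 95.3% ± 4.11 of its TPM, whereas the leading Rxrb transcript, Rxrb-202, held 27.6% ± 4.65.

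The liver X receptors respond to oxysterols and control cholesterol export and lipid synthesis. Nr1h2 (liver X receptor beta) was at 112, 109.65 and 109 TPM, or 110.2 ± 1.45, the highest of all 24 receptors. Nr1h3 (liver X receptor alpha) was at 1.52, 2.46 and 2.31 TPM, or 2.10 ± 0.51, from 52, 76 and 77 expected counts. The log2 ratio of Nr1h2 to Nr1h3 was 5.68 ± 0.38, so the beta gene stood above the alpha gene by far more than the spread in all 3 libraries. In TPM of transcripts with a complete coding sequence the levels were 78.3 ± 5.17 for Nr1h2 and 1.78 ± 0.25 for Nr1h3.

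The peroxisome proliferator-activated receptors sense fatty acids, and all 3 were low. Pparg, known as a marker of Treg cells in adipose tissue, was at 2.44, 3.24 and 2.18 TPM, or 2.62 ± 0.55. Ppard was at 1.87 ± 1.10 TPM, and Ppara had 0, 11 and 0 expected counts, or 0.0833 ± 0.144 TPM. Ppard and Pparg could not be ordered on gene TPM, with a log2 ratio of Ppard to Pparg of -0.58 ± 1.00 that reached -1.13, beyond the spread, without library 3. Ppard was the only detected gene of the 21 led by a transcript that is not protein coding: the retained-intron transcript Ppard-208 held 36.6% ± 17.6 of its TPM, and retained-intron transcripts together held 74.0% ± 5.66. Its protein-coding transcripts reached 0.327 ± 0.0929 TPM, under the detection threshold, and on that measure the log2 ratio of Ppard to Pparg was -2.65 and larger than the spread. The Pparg share moved between starts from library to library: Pparg-202 held 17.1%, 59.3% and 42.7%, and Pparg-201 held 77.1%, 9.26% and 0%, at 82 to 127 counts for the whole gene.

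Among receptors for thyroid hormone and vitamin D, Thra was at 5.05, 5.75 and 4.81 TPM, or 5.20 ± 0.49. Thrb was at 1.17, 0.44 and 0.96 TPM, or 0.857 ± 0.376. Thra exceeded Thrb in every library, with a log2 ratio of 2.56 ± 0.77, but on CPM the ratio of 1.29 was within the spread. Thra overlaps antisense exons of Nr1d1 over 263 bases, and the authors' posterior SD of its count was at most 1.29% of the count. Vdr, the vitamin D receptor, had 50, 0 and 97 expected counts, or 0.59, 0 and 0.96 TPM. The smaller tables list Vdr at 22, 0 and 41 counts, again with none in library 2, where 3 counts would give 0.129 TPM.

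Steroid receptors were represented mainly by Nr3c1, the glucocorticoid receptor, at 73.9, 75.1 and 74.4 TPM, or 74.5 ± 0.60. Nr3c2, the mineralocorticoid receptor, was at 0.06, 0.69 and 0.11 TPM from 5, 17 and 14 counts, and the log2 ratio of Nr3c1 to Nr3c2 was 7.97 ± 1.22. Esr1, the alpha estrogen receptor, was at 1.08 ± 0.30 TPM, and Pgr, the progesterone receptor, at 0.0733 ± 0.0945 TPM from 5, 14 and 0 counts. The glucocorticoid receptor was thus the single steroid receptor above 1 TPM in all 3 libraries. Its TPM was led by Nr3c1-208, a transcript of 1891 bases whose annotated coding sequence is incomplete, with 42.7% ± 2.31, while Nr3c1-203, of 6436 bases and complete, held 25.6% ± 2.41 of the TPM and 50.2% of the expected counts. Nr3c1-208 shares 1476 bases with Nr3c1-203 and has 310 of its own. Summed over complete coding transcripts, Nr3c1 stood at 34.6 ± 0.86 TPM. Of the Esr1 TPM, Esr1-204 held 12.5%, 83.6% and 49.2% and the retained-intron transcript Esr1-209 held 58.3%, 14.8% and 14.8%, so the makeup of that low level differed between libraries.

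The orphan receptors have no established hormone or act largely without one. Nr2c2, a testicular receptor that competes for direct repeats, led them at 53.9, 48.3 and 53.0 TPM, or 51.7 ± 3.01, and its relative Nr2c1 was at 2.64, 2.45 and 3.07 TPM, or 2.72 ± 0.32. The log2 ratio of Nr2c1 to Nr2c2 was -4.20 ± 0.12 with no overlap between the genes' libraries. Antisense exons of Mrps25 and Gm44249 cover 4657 of the 14935 exon bases of Nr2c2, and the complete coding transcripts of Nr2c2 summed to 26.4 ± 2.00 TPM, at which the log2 ratio was -3.23. Esrra, the estrogen-related receptor alpha that drives mitochondrial genes, was at 28.7, 26.2 and 27.6 TPM, or 27.5 ± 1.27. It stood above Esr1 in all libraries, with a log2 ratio of 4.58 ± 0.47. Nr2f6, a repressor of cytokine genes in T cells, was at 13.2, 12.2 and 8.68 TPM, or 11.4 ± 2.36, with 1622 of its 2983 exon bases overlapped by antisense Ocel1. Nr6a1, the germ cell nuclear factor, was at 1.11 ± 0.41 TPM, and Hnf4a, a liver and gut receptor, had 0 counts in all 3 libraries, where 3 counts would give 0.0695 TPM.

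Coactivators of the p160 family were all well above the threshold. Ncoa3 was at 109.99, 98.2 and 96.3 TPM, or 101.5 ± 7.41, Ncoa2 at 47.0, 41.3 and 39.0 TPM, or 42.4 ± 4.13, and Ncoa1 at 31.3, 35.0 and 33.5 TPM, or 33.3 ± 1.90. Ncoa3 exceeded both relatives in every library, with log2 ratios of 1.26 ± 0.04 to Ncoa2 and 1.61 ± 0.18 to Ncoa1. Ncoa1 and Ncoa2 were not separated on gene TPM, at a log2 ratio of Ncoa1 to Ncoa2 of -0.35 ± 0.21, although the 3 ratios had the same sign. Ncoa2 was higher beyond the spread on CPM, at -0.67 ± 0.15, on complete coding transcripts, at -0.61 ± 0.10, and on gene TPM without library 1, at -0.23. Med1, the Mediator subunit that contacts receptors, was at 34.2, 28.9 and 26.6 TPM, or 29.9 ± 3.88. Its TPM was led by the shorter Med1-202 (47.7% ± 2.98, 2627 bases) and its counts by Med1-203 (54.0%, 8024 bases). Of the 2 coactivators known for mitochondrial biogenesis, Ppargc1b was at 5.06, 6.98 and 4.93 TPM, or 5.66 ± 1.15. Ppargc1a was at 0.26, 0.06 and 0.02 TPM from 23, 3 and 3 counts, and the log2 ratio of Ppargc1b to Ppargc1a was 4.90 ± 0.92. Library 1, where Ppargc1a was highest, also had the highest summed marker levels of granulocytes, B cells, dendritic cells, CD8 and NK cells, and erythroid cells. Macrophage and monocyte markers were highest in library 3, and stroma and hepatocyte markers in library 2. The part of any of those cells in the Ppargc1a value was not tested.

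Both corepressors were high in gene TPM. Ncor1, the scaffold that brings the deacetylase Hdac3 to unliganded receptors, was at 335, 327 and 331 TPM, or 330.9 ± 4.46, the highest of all 32 genes, with a log2 difference of 1.58 ± 0.01 to the next gene, Nr1h2. Nrip1, a corepressor of ligand-bound receptors, was at 77.1, 66.8 and 73.7 TPM, or 72.5 ± 5.22, and the log2 ratio of Ncor1 to Nrip1 was 2.19 ± 0.09. These Ncor1 values rest on short transcripts. Ncor1-212, of 1695 bases and with an incomplete coding sequence, held 56.4%, 55.1% and 56.5% of the Ncor1 TPM, or 56.0% ± 0.78, and 50.6% ± 0.93 of its expected counts. The full-length Ncor1-201, of 9037 bases, held 3.18% ± 0.81 of the TPM and 15.6% ± 3.80 of the counts. Over complete coding transcripts Ncor1 was at 35.9, 36.3 and 33.2 TPM, or 35.1 ± 1.66. On that measure its log2 ratio to Nrip1 was -0.22 ± 0.24, turned in sign and within the spread. Ncor1 was also no longer the highest gene on it. Nr1h2 (78.3 ± 5.17 TPM), Ncoa3 (78.3 ± 4.58 TPM) and Rara (66.7 ± 3.42 TPM) stood above Ncor1. The 15 exons of Ncor1-212 share 1668 of their 1695 bases with Ncor1-201 and include no base that is absent from all other Ncor1 transcripts, so the division of reads between them rests on the authors' estimation and not on sequence of its own. At the level of the gene the assignment was clear: the posterior SD of the Ncor1 count was at most 0.0107% of the count.

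The 2 annotated Ncor1 starts that have a window are shown because they differ in composition. The rest of the Ncor1 TPM and counts lay on transcripts that start near neither. Both windows are on the minus strand of GRCm38.p6, from RefSeq, with CpGs in capitals. The first, chr11:62457283-62457582, is the start of Ncor1-201 and holds 36 CpGs at 72.3% GC, and transcripts starting within 500 bases of it held 13.2% ± 0.17 of the TPM and 32.2% ± 2.18 of the counts. The second, chr11:62438466-62438765, is the start of Ncor1-212 and holds 2 CpGs at 38.3% GC, and transcripts starting there held 56.2% ± 0.76 of the TPM and 51.2% ± 0.94 of the counts.
Ncor1 upstream start: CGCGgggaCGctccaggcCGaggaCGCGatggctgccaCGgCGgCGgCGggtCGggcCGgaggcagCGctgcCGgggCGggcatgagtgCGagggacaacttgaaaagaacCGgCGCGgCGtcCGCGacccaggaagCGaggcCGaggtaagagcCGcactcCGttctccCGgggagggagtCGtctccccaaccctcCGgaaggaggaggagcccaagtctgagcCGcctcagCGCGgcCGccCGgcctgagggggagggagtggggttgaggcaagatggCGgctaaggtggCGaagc
Ncor1 internal start: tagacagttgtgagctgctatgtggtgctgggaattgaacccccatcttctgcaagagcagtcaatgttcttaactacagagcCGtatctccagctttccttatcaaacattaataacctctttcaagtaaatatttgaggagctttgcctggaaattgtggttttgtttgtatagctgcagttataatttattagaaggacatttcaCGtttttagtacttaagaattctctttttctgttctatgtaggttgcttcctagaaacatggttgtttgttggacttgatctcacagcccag
No map of 5' ends was among the data, so use of the internal start was not measured apart from these estimates. Whether the first base of Ncor1-212 is a start of RNA or an exon boundary within longer Ncor1 transcripts was not tested.

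Transcript makeup set the gene-level values of other members too. Of the 21 detected genes, 20 were led by a protein-coding transcript, 11 had a leading transcript with under 50% of the gene's TPM, and for 2, Ncor1 and Nr3c1, the leading transcript had an incomplete coding sequence. The leader was the same by TPM and by expected counts in 19, the exceptions being Nr3c1 and Med1. No such counts over all detected protein-coding genes are given here, so these counts mark no trait of the members. Complete coding transcripts made up a median of 77.2% of TPM over the 21 genes, beside 82.3% over the 10429 detected protein-coding genes. At the high end stood Nr2c1 at 100% and Rara at 99.7% ± 0.44. At the low end, below 50%, stood Ncor1 at 10.6% ± 0.54, Ppard at 19.9% ± 7.49, Ncoa1 at 41.2% ± 1.90, Nr3c1 at 46.4% ± 0.92 and Ncoa2 at 49.6% ± 1.63. Retained-intron transcripts held 32.6% ± 0.52 of the Nrip1 TPM, 31.2% ± 1.54 of the Ncoa2 TPM and 20.1% ± 1.18 of the Ncoa3 TPM, while transcripts annotated for nonsense-mediated decay held 12.3% ± 2.68 in Ncoa1 and 11.5% ± 3.06 in Nr2c2.

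**Figure D2:**
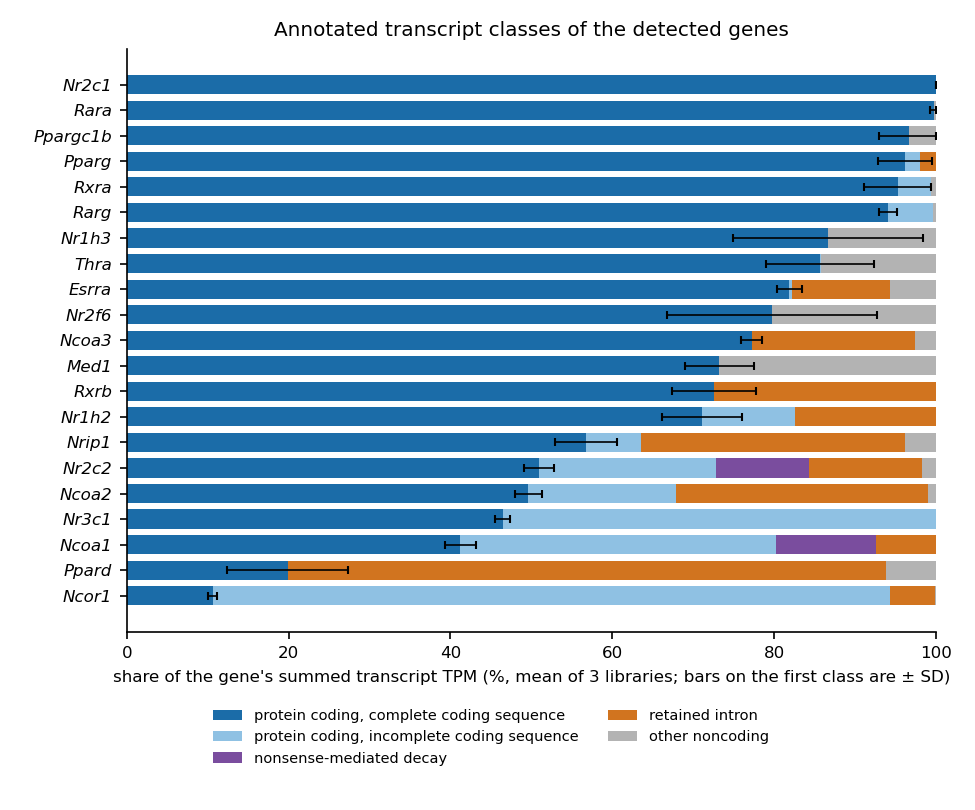
Each bar divides 1 detected gene's summed transcript TPM, in percent and averaged over 3 libraries, by annotated transcript class, with ± SD for complete protein-coding transcripts. Ncor1 and Ppard stand at the bottom with 10.6% and 19.9% of TPM on complete coding transcripts.

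Of 20 ratios between related genes, 18 were larger than the spread on TPM, the exceptions being Ppard to Pparg and Ncoa1 to Ncoa2. The count stayed between 17 and 18 under every other scale tried, but not all directions did. Rxra to Rxrb turned in sign on CPM, and Ncor1 to Nrip1 turned in sign on complete coding transcripts, an alternative chosen after seeing the data. The ratio of Ppara to Ppard, -3.56 ± 1.63, fell within the spread without library 1 (-3.41) and without library 3 (-2.83), and also with 0.01 TPM added in place of 0.1, on protein-coding transcripts and in the smaller tables.

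**Figure D3:**
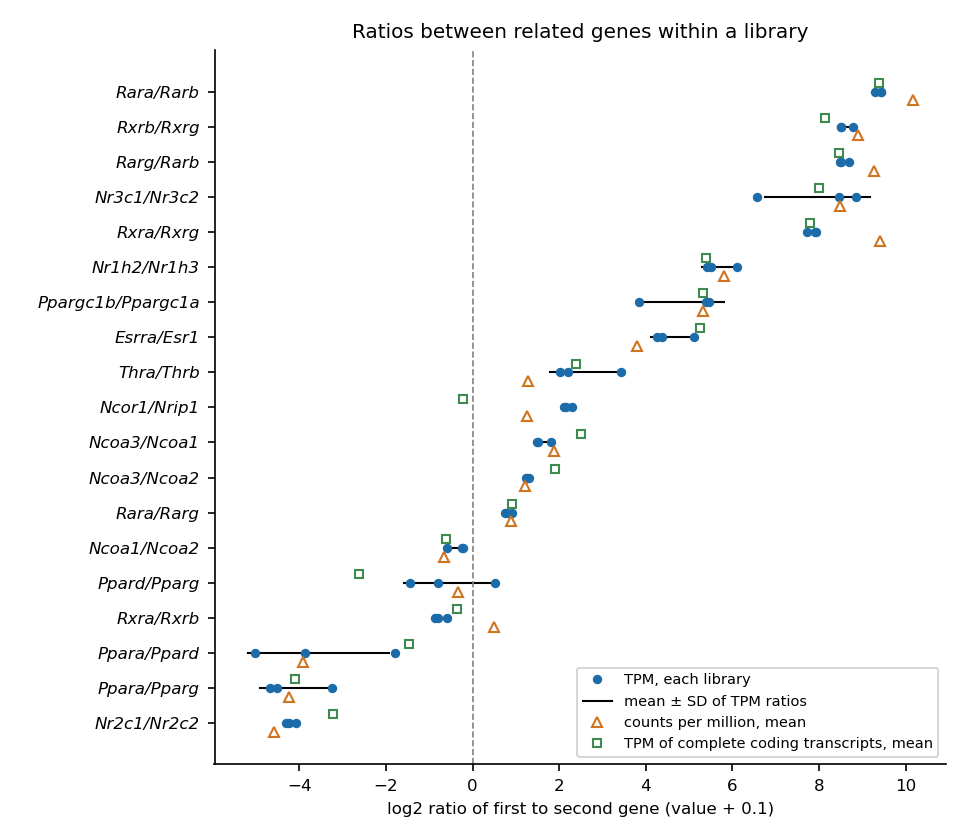
Each row is a pair of related genes, 19 of the 20, and the x axis is the log2 ratio of the first to the second with 0.1 added to each value; dots are TPM ratios in each library, lines are mean ± SD, triangles are CPM and squares are TPM of complete coding transcripts. Rxra to Rxrb crosses 0 for CPM (0.49) and Ncor1 to Nrip1 crosses 0 for complete coding transcripts (-0.22).

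Start-site windows of 300 bases from RefSeq were used for 27 of the 32 genes, 43 windows in all, and for neither Nr3c1, Ppargc1b, Ncoa2, Ncoa3 nor Thra. The highest CpG count per gene had a median of 27 over 16 detected members and 13 over 11 members that were not detected. The same medians were 23 over 8281 detected and 5 over 8241 undetected protein-coding genes, so the members' difference runs the same way as that of coding genes at large. The direct repeat with a spacer of 5 bases, NGNTCANNNNNNGNTCA on either strand, matched in 1 member window, that of Rarb, and in 0.861% of all 32851 windows. The repeat with a spacer of 3 bases, NGNTCANNNNGNTCA, matched in 1 window of Rara and in 0.70% of all windows. Repeats with spacers of 1, 2 and 4 bases (NGNTCANNGNTCA, NGNTCANNNGNTCA and NGNTCANNNNNGNTCA) and the inverted repeat GNACANNNTGTNC of steroid receptors matched in none of the 43, and in 1.25%, 1.11%, 0.855% and 0.475% of all windows. A spacer pattern can overlap another where repeats follow each other, and a match or its absence describes letters in the window only.

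Spread between the libraries was tested with a chi-square test of equal shares of the expected counts. Of 26 members with at least 30 summed counts, 18 had unequal shares at an adjusted p under 0.05, beside 65.8% of the 15945 genes tested. After scaling by the overdispersion common to the genes tested, 8.62, 0 members were called, beside 1.85% of all genes. The coefficient of variation beyond counting error was largest for Vdr at 92.8% (adjusted p = 4.34e-17, and 0.221 after that scaling), followed by Esr1 at 55.7%, Nr3c2 at 43.0% and Thrb at 36.3%. It was 0% for Esrra, 1.22% for Nr1h2 and 1.38% for Ncor1. Esr1 had 41, 149 and 104 counts and Thrb 122, 56 and 119, so the library that was low differed from gene to gene. Among well-covered members, Rxrb had 1781, 1447 and 1636 counts, highest in library 1 although that library was the shallowest, with 14.7% of variation beyond counting error.

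**Figure D4:**
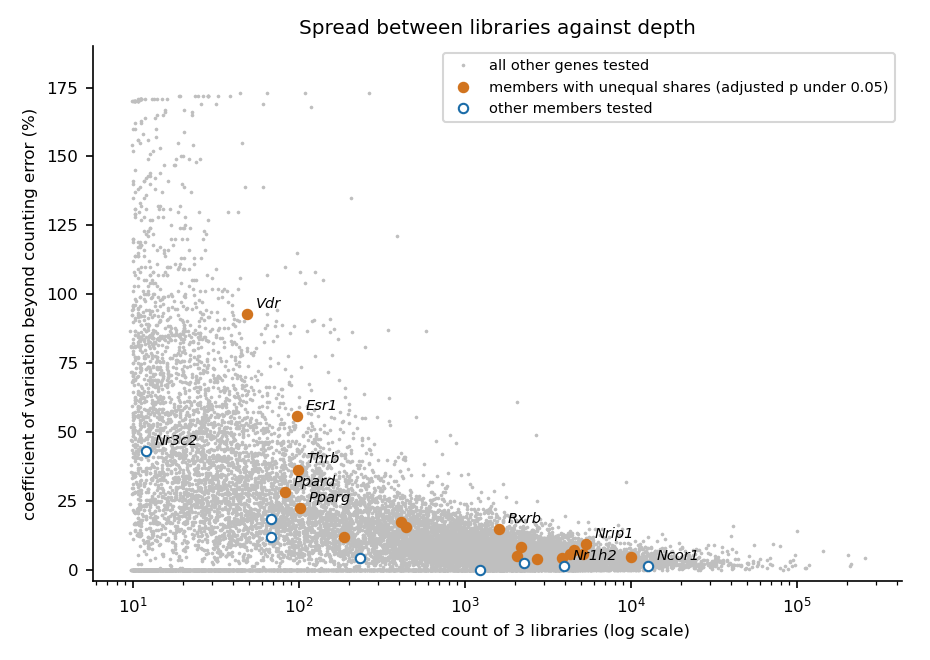
Each dot is a gene, with its mean expected count on a log x axis and its coefficient of variation between the 3 libraries beyond counting error on the y axis in percent; filled members had unequal shares at an adjusted p under 0.05. Vdr at 92.8% and Esr1 at 55.7% stand highest among the members, and Ncor1 and Nr1h2 stand under 2%.

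Other genes of these pathways were read from 12 lists, beside the 47.3% detected over all protein-coding genes. Every one of 25 other coregulators was detected, at a median of 43.0 TPM, with Pnrc1 (358 ± 9.33), Gps2, a subunit of the Ncor1 complex (122 ± 10.4), and Prmt1, an arginine methyltransferase (116 ± 0.56), highest and Lcor (7.14 ± 0.28) lowest. Of 25 other nuclear receptor genes 7 were detected and 8 had 0 counts throughout. The highest were the early activation gene Nr4a1 at 100.6 ± 8.08 TPM, Rora at 58.9 ± 2.98 TPM and the circadian repressor Nr1d2 at 22.4 ± 2.40 TPM, while Esrrb was at 0. All 12 genes of the heat shock protein 90 machinery that holds steroid receptors were detected, with a median of 114 TPM, from Hspa8 at 1694 ± 48.4, Hsp90ab1 at 513 ± 14.8 and Hsp90aa1 at 283 ± 8.29 TPM down to Fkbp5 at 69.6 ± 2.76 TPM.

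Genes that make, carry or break down the ligands were mostly low. The medians of the 3 lists, in the order below, were 0.118, 0.06 and 0.497 TPM, beside 0.808 TPM over all protein-coding genes. Detected were 28.6%, 21.4% and 45.5%, the last near the 47.3% over all protein-coding genes. Of 14 retinoid genes 4 were detected, led by the retinol dehydrogenase Rdh11 (15.4 ± 1.77 TPM), the retinal reductase Dhrs3 (5.31 ± 1.04 TPM) and the retinol dehydrogenase Rdh10 (2.25 ± 0.21 TPM), and Cyp26c1, of the retinoic acid hydroxylases, was at 0. Of 14 genes for steroid, vitamin D and thyroid hormone handling 3 were detected. The exception was Hsd11b1, which regenerates active glucocorticoid from its inert keto form, at 206, 200.07 and 204 TPM, or 203 ± 3.11. H6pd, which supplies its cofactor in the endoplasmic reticulum, was at 9.56 ± 0.35 TPM, the thyroid hormone transporter gene Slc16a10 at 1.08 ± 0.06 TPM and Dio3 at 0. In gene TPM, Hsd11b1 stood above every receptor of the 32, Nr3c1 included. Of 11 oxysterol and lipid genes 5 were detected, led by the lipase gene Pnpla2 (76.4 ± 3.23 TPM), Fabp5 (50.7 ± 3.17 TPM) and Acsl1 (8.92 ± 0.92 TPM), with the 25-hydroxylase gene Ch25h at 0.

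The textbook target lists ranged from 16.7% detected for the vitamin D, thyroid hormone and estrogen receptors to 91.7% for the glucocorticoid receptor. Over all protein-coding genes the share was 47.3%, which the 50% of the retinoic acid receptor list was near. Of 12 glucocorticoid receptor targets 11 were detected, with Nfkbia (494 ± 10.5 TPM), Zfp36 (162 ± 7.96 TPM) and Tsc22d3, which encodes the glucocorticoid-induced leucine zipper (142 ± 2.91 TPM), highest and Zbtb16 (0.0667 ± 0.0404 TPM) lowest. Of 12 liver X receptor targets 9 were detected, led by Srebf1 (51.7 ± 6.78 TPM), Lpcat3 (45.4 ± 2.10 TPM) and the sterol exporter gene Abcg1 (35.7 ± 3.60 TPM), with Abcg8 at 0. For the retinoic acid receptors the detected genes, 6 of 12, included the gut-homing genes Itgb7 (1607 ± 63.6 TPM), Itga4 (94.3 ± 2.25 TPM) and Ccr9 (11.4 ± 1.63 TPM), while the feedback target Rarb was at 0. Fatty acid oxidation genes Hadha (91.1 ± 8.14 TPM), Acadl (70.6 ± 4.51 TPM) and Slc25a20 (65.4 ± 4.14 TPM) led the 8 of 12 detected targets of the peroxisome proliferator-activated receptors. For the estrogen-related receptor alpha 10 of 12 were detected, with the ATP synthase gene Atp5b (989 ± 51.7 TPM) highest. The respiratory chain genes Uqcrc1 (280.2 ± 14.6 TPM) and Sdha (175 ± 5.48 TPM) came next, and Pdk4 (0.05 ± 0.05 TPM) was lowest. Only Ctsd (398 ± 8.95 TPM) and Klf9 (2.15 ± 0.63 TPM) of 12 targets of the vitamin D, thyroid hormone and estrogen receptors were detected, with Tff1 (0.577 ± 0.368 TPM) next and Dio1 at 0. Many of these genes have other regulators, and with a single group no level was set against receptor activity.

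**Figure D5:**
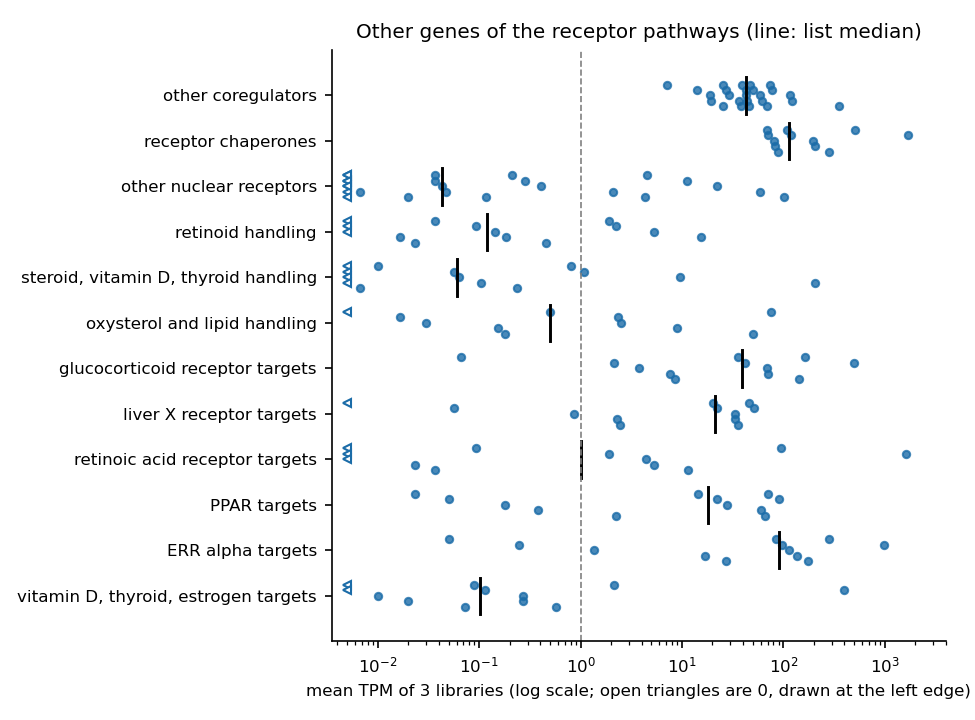
Each dot is the mean TPM of 1 gene over 3 libraries on a log axis, by list, with a black line at the list's median, open triangles for genes at 0 and a dashed line at 1 TPM. Other coregulators and chaperones lie wholly to the right of 1 TPM, with medians of 43.0 and 114 TPM, while most other receptors lie to its left.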

How the data were processed

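Polyadenylated RNA of 3 technical libraries of 1 biosample was analysed as a single group, with no comparison between conditions. Per the file headers, the authors deposited expected counts, TPM, FPKM and a posterior standard deviation of each count per gene on mm10 with GENCODE M21, and expected counts and TPM per transcript. The smaller gene tables deposited by the authors hold whole-number counts on GENCODE M4, in which all 32 genes were found. Their counts level off in abundant genes and are also far below the expected counts in some less abundant ones. Cycs, for example, had a mean of 1.67 counts there, beside 679, 951 and 1138 expected counts in libraries 1, 2 and 3. Hspa4 had a mean of 3565, beside 6322, 6900 and 8174. The sources used here name no aligner, counting program or use of strand. Reads of antisense genes may therefore be mixed. Rows matching no annotated gene held 0.125%, 0.182% and 0.155% of the counts and stayed out of library sizes and tests.

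From these values, ratios were taken as log2(TPM + 0.1). Expected counts were rounded for the chi-square test (2 degrees of freedom, summed count of at least 30, Benjamini-Hochberg adjustment), which compares reads, not molecules. It was tried on simulated data with counting error only, so that trial does not cover the overdispersion of 8.62 between these libraries. Limits for counts of 0 were taken at 3 counts and, like the test, cover counting error only. Alternatives used edgeR 4.0.16 TMM factors, DESeq2 1.42.0 size factors, other pseudocounts and minimums, FPKM, transcript classes and leaving out each library. Python 3.11.15, pandas 2.3.3, scipy 1.17.1 and statsmodels 0.14.6 were used.

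The members, lists and tests were chosen with earlier results of these data known. All 32 members are named, and of each list the 3 highest genes and the lowest. A few list genes that this rule would name, and 1 of the 20 ratios, are not reported here. Of the lists, Rarb, Esrra and Pgr are also members, and several genes stand in more than 1 list. Windows and start sites come from RefSeq (GRCm38.p6). Ncoa2, Ncoa3 and Thra had no matched window, and windows of Nr3c1 and Ppargc1b were not used here. Protein sequences were not used here.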

Additional observations from a re-analysis of the deposited data

How the results depend on the processing

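The 21 detected members became 23 at a TPM minimum of 0.5, 19 at 2, 24 on CPM, 19 on FPKM and 20 on protein-coding transcripts, and 21 to 22 when each library was left out. Beside the 21 stands a share of 47.3% over all protein-coding genes. For the other rules that share is not given here, so whether the members moved with genes at large was not tested. The members with unequal shares, 18, fell to 0 when the chi-square was divided by the shared overdispersion, and were 14 with each library left out, where the share over all genes tested also fell, from 65.8% to 48.6%, 41.1% and 45.0% without libraries 1, 2 and 3. With each library left out, 18 ratios were beyond the spread, the same 18 only without library 2. The log2 ratio of Rxra to Rxrb turned to 0.49 on CPM, and that of Ncor1 to Nrip1 to -0.22 on complete coding transcripts, a scale added after seeing the data. Both follow from the construction of those scales. CPM drops the length correction, and the other scale drops every transcript without a complete coding sequence, retained-intron and other noncoding transcripts included. The ratio of Ppara to Ppard lost its call without library 1 (-3.41) and without library 3 (-2.83). Ppard to Pparg gained one without library 3 (-1.13), in the smaller tables (-2.12), on protein-coding transcripts (-2.65) and on complete coding transcripts (-2.63). Ncoa1 to Ncoa2 gained one without library 1 (-0.23), on CPM (-0.67) and on complete coding transcripts (-0.61). The median level of the members was 4.96 to 5.71 TPM with a library left out. No paired analysis was possible because the series has a single group and the replicate numbers pair no samples. At these depths a member with 0 counts may lie anywhere below the level that 3 counts give.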
